A study of Mus musculus with 15 samples.

Results

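Ventricles of mice that had made the RNA-binding protein Celf1 in heart muscle cells for 72 h were compared with ventricles of mice that had made it for 12 h, with 3 mice in each group, 6 of the 15 mice of the series. The mice were taken by the time given in their labels. All 6 carried MHCrtTA, which makes the reverse tetracycline transactivator from the alpha myosin heavy chain promoter and so in heart muscle cells, together with TRECUGBP1, a tetracycline-inducible human Celf1 of the LYLQ isoform with a Flag tag at its N-terminus. They were 20 to 22 weeks old and ate food with 2 g/kg doxycycline, the drug that switches the transgene on, after 2 to 3 h without food. The atria and a small piece of the apex had been cut away, and polyadenylated RNA of the remaining ventricle was sequenced as read pairs. Mice with MHCrtTA alone, which ate doxycycline for 72 h, were not used, so the comparison is between 2 induced groups. Values are RPKM, reads scaled by the length of the gene model and by the mapped reads of the library. Wherever the 3 values of a group are listed, they are for mice A3278, A3281 and A3264 at 72 h and for mice A3258, A3252 and A3276 at 12 h. A3281 and A3264 were each sequenced in 2 columns, whose values were averaged.

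Celf1 binds GU-rich elements in RNA, regulates alternative splicing in the nucleus and promotes decay of messenger RNAs in the cytoplasm, and it is raised in hearts of people with myotonic dystrophy. The transcription factor p53 is held low by Mdm2, its ubiquitin ligase, and after stress it turns on genes of cell cycle arrest, DNA repair and cell death, Mdm2 among them. In the circadian clock, Arntl and Clock activate the Per and Cry genes, whose proteins repress them in turn, and the factors Dbp, Tef and Hlf pass the rhythm on to other genes.

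The library of A3278 stood apart from those of the other 72 h mice. It differed from A3281 and A3264 by a median of 0.43 and 0.386 on the log2 scale over genes, while those 2 mice differed from each other by 0.166 and the 12 h mice among themselves by 0.229 to 0.277. The 2 columns of A3264 differed by 0.25 and those of A3281 by 0.165. These mice are averages of 2 columns, while A3278 and the 12 h mice are single columns, so the medians are not fully alike. The deviations of A3278 went with the GC content of the gene (Spearman 0.603 across genes of this library, against -0.184 to 0.234 in the other 5 mice). Genes are not independent replicates. Each column also carries a code whose meaning is not stated, and 1 code occurs at both times, on 1 column of A3264 and on the column of A3276. Summed RPKM of 12 heart muscle markers (Myh6, Myl2, Tnnt2 and others) came to 42249 to 55671 at 72 h and 46220 to 60725 at 12 h, and none of the 12 passed the test, with 4 lower after a common scaling of the mice. In whole ventricle, fewer cells of a type and less RNA per cell cannot be told apart.

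The Celf1 gene itself (listed as Cugbp1, chr2:90780539-90859654, plus strand, mm9) was lower at 72 h than at 12 h. Its row held 179, 181 and 159 RPKM in the 72 h mice, against 351, 219.7 and 345 RPKM in the 12 h mice. All 3 values at 72 h lay below all 3 at 12 h, and A3252 was the lowest of the 12 h mice. The log2 difference, 72 h minus 12 h on log2(RPKM + 1), was -0.79 ± 0.22 (SE), with a limma adjusted p of 0.029. The exact two-sided permutation test of the 6 values gave p = 0.1, the smallest that 3 against 3 mice allow. The adjusted p was 0.0502, 0.0561 or 0.0929 without A3278, A3281 or A3264, and 0.126 or 0.119 without A3258 or A3276. The row is that of the mouse gene, and how far reads of the human transgene are counted in it was not tested.

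Of 10871 genes tested, 1324 were higher at 72 h at a limma adjusted p under 0.05, which is 12.2% of them, and 98 were lower, which is 0.901%. The difference exceeded 1 on the log2 scale, a doubling, for 622 of the higher and 24 of the lower genes. In 3050 genes (28.1%) every 72 h value lay above every 12 h value, and in 555 genes (5.11%) every one lay below. Much of this imbalance moved with the scale of the libraries: the median difference over all tested genes was 0.20, and after the mice were brought to a common scale by the median of their ratios (median -0.01) 769 genes (7.07%) were higher and 461 (4.24%) lower. All 98 genes lower on the deposited scale were also called lower on the common scale, and 769 of the 1324 higher genes were also called higher. Leaving out 1 mouse gave 694 higher and 37 lower genes without A3276, 788 and 40 without A3258, 1116 and 55 without A3252, 953 and 50 without A3264, 988 and 48 without A3281, and 918 and 96 without A3278.

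A3278 was the highest of the 6 mice in 859 of the 1324 higher genes, A3281 in 393 and A3264 in 72. The median of the higher genes above the 12 h mean was 1.17 in A3278, 0.92 in A3281 and 0.87 in A3264 on the log2 scale; the genes were chosen on these same mice, so these medians are a description. With the column code as a term 467 genes (4.3%) were higher and 26 (0.239%) lower, of which 451 and 18 were also called without it. A3278 and A3252 each had a code that no other column of that fit carried, so neither mouse added to its difference. Between the 2 columns that share a code, 1314 of the 1324 higher and all 98 lower genes differed in the same direction, where 6501 of all 10871 genes were higher at 72 h; both columns also entered the calls.

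**Figure D1:**
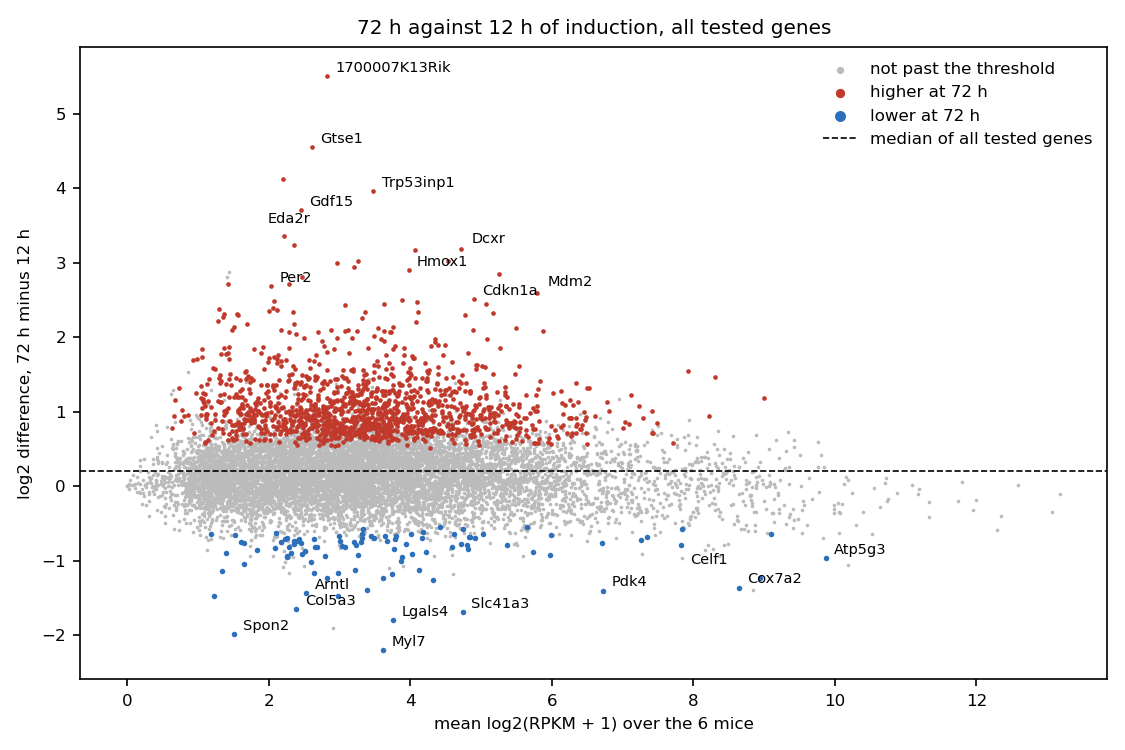
Each point is 1 of the 10871 tested genes, with its mean log2(RPKM + 1) over the 6 mice on the x axis and its log2 difference, 72 h minus 12 h, on the y axis. The 1324 genes higher at 72 h are red, the 98 lower are blue, and the dashed line is the median difference of 0.20.

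The largest rise was that of 1700007K13Rik (chr2:28317521-28321852, minus strand, mm9), which the table describes as a hypothetical protein. It had 58.5, 37.2 and 47.3 RPKM at 72 h, against 0, 0 and 0.15 RPKM at 12 h, so that it was listed at 0 in 2 of the 12 h mice; the log2(RPKM + 1) difference was 5.51 ± 0.29 (SE, limma adjusted p = 3.84e-08). Gtse1 (chr15:85690137-85707002, plus strand), a microtubule-binding protein of the dividing cell and a p53 target, came next with 37.2, 25.9 and 24.2 RPKM at 72 h, against 0.09, 0.57 and 0.17 RPKM at 12 h (4.55 ± 0.36, limma adjusted p = 2.2e-06). Both were near 0 in every 12 h mouse and over 20 RPKM in every 72 h mouse.

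Gdf15 (chr8:73153292-73156355, minus strand), a secreted stress cytokine of the TGF-beta family, had 34.5, 13.8 and 13.8 RPKM at 72 h, against 0.98, 0.07 and 0.62 RPKM at 12 h (3.71 ± 0.36, limma adjusted p = 1.98e-05). Eda2r (chrX:94529179-94572555, minus strand), a receptor of the tumour necrosis factor receptor family, had 11.1, 16.2 and 15.1 RPKM, against 0.4, 0.81 and 0.21 RPKM (3.37 ± 0.23, limma adjusted p = 6.5e-07). For Gdf15 the mouse A3278 was more than 2-fold above the other 72 h mice, whereas for Eda2r it was the lowest of the 3.

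Dcxr (chr11:120586713-120588595, minus strand), a dicarbonyl and xylulose reductase, and Rac3 (chr11:120582784-120585283, plus strand), a small GTPase of the Rac group, are neighbours on the chromosome. Dcxr had 95.6, 67.2 and 74.9 RPKM at 72 h, against 10.7, 5.38 and 7.82 RPKM at 12 h (3.19 ± 0.23, limma adjusted p = 6.96e-07). Rac3 had 21.2, 9.88 and 15.1 RPKM at 72 h, against 0.95, 0.16 and 1.01 RPKM at 12 h (3.25 ± 0.28, limma adjusted p = 6.42e-06). Their gene models share no exon bases in the annotation used.

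The other genes among the 15 largest rises had differences of 2.85 to 4.13. They were Trp53inp1, Phlda3 and Dffb, of which Dffb is the caspase-activated DNase of cell death, the stress factor Atf3, the heme oxygenase Hmox1, the metallothionein Mt2, the histone variant H2aj, and Fam166a and Scand1. Dffb had 26.3, 20.2 and 17.5 RPKM at 72 h, against 1.7, 2.06 and 1.53 RPKM at 12 h (3.00 ± 0.24, limma adjusted p = 2.45e-06). Mt2 had 60.8, 38.5 and 51.8 RPKM at 72 h, against 9.79, 1.32 and 5.97 RPKM at 12 h, and A3252 was far below the other 12 h mice (3.17 ± 0.53, limma adjusted p = 0.00128). H2aj had 161, 83.8 and 78.01 RPKM at 72 h, against 27.8, 6.23 and 12.98 RPKM at 12 h (2.85 ± 0.49, limma adjusted p = 0.00167). Scand1 shares 40.4% of its exon bases with 4921517L17Rik on the other strand, and since the strand of the reads is not stated the 2 genes cannot be told apart. With the column code as a term its limma adjusted p was 0.174, and it also lost its call without A3252. The other 14 kept their call under each alternative run for them, 19 for all but Eda2r, which was below the stricter minimum of 5 RPKM and had 18.

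Among the largest falls, Spon2 (chr5:33556167-33560887, minus strand), a secreted matrix protein, had 0.86, 0.18 and 0.35 RPKM at 72 h, against 3.08, 8.9 and 3.52 RPKM at 12 h (-1.98 ± 0.30, limma adjusted p = 0.000675). Lgals4 (chr7:29618813-29626722, plus strand), a galectin that binds galactose-bearing sugars, had 5.82, 5.73 and 7.33 RPKM at 72 h, against 22.9, 30.3 and 20.4 RPKM at 12 h (-1.80 ± 0.22, limma adjusted p = 0.00011). Slc41a3 (chr6:90554719-90596406, plus strand), of a family of magnesium transporters, had 19.1, 11.6 and 12.2 RPKM at 72 h, against 49.4, 49.6 and 42.3 RPKM at 12 h (-1.68 ± 0.21, limma adjusted p = 0.00013). In these 3 genes the groups were widely separated, with every 12 h value at least 2 times every 72 h value.

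Col5a3 (chr9:20574494-20619511, minus strand), the alpha 3 chain of collagen V, had 2.67, 1.75 and 1.58 RPKM at 72 h, against 8.3, 8.93 and 7.64 RPKM at 12 h (-1.65 ± 0.21, limma adjusted p = 0.000188). Klhdc8a, a kelch-domain protein, had 9.91, 3.44 and 4.5 RPKM at 72 h, against 16.2, 16.2 and 15.3 RPKM at 12 h (-1.40 ± 0.32, limma adjusted p = 0.00949). Lrrc3b, a leucine-rich repeat membrane protein, had 6.82, 7.43 and 6.84 RPKM at 72 h, against 16.4, 24.5 and 14.03 RPKM at 12 h (-1.23 ± 0.22, limma adjusted p = 0.00221). These, with Spon2, Lgals4, Slc41a3, the clock gene Arntl and the cytochrome oxidase subunit Cox7a2, were the 8 of the 15 largest falls that kept their call under each alternative run for them, 18 for Spon2 and Arntl, which were below the minimum of 5 RPKM, and 19 for the other 6. The call of Acot3, Efcab2, Atp5l, Sp140 and Myh3 was lost with the column code as a term (adjusted p of 0.101 to 0.387), that of Myl7 without the filter on low values, and that of Pdk4 under 7 alternatives.

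**Figure D2:**
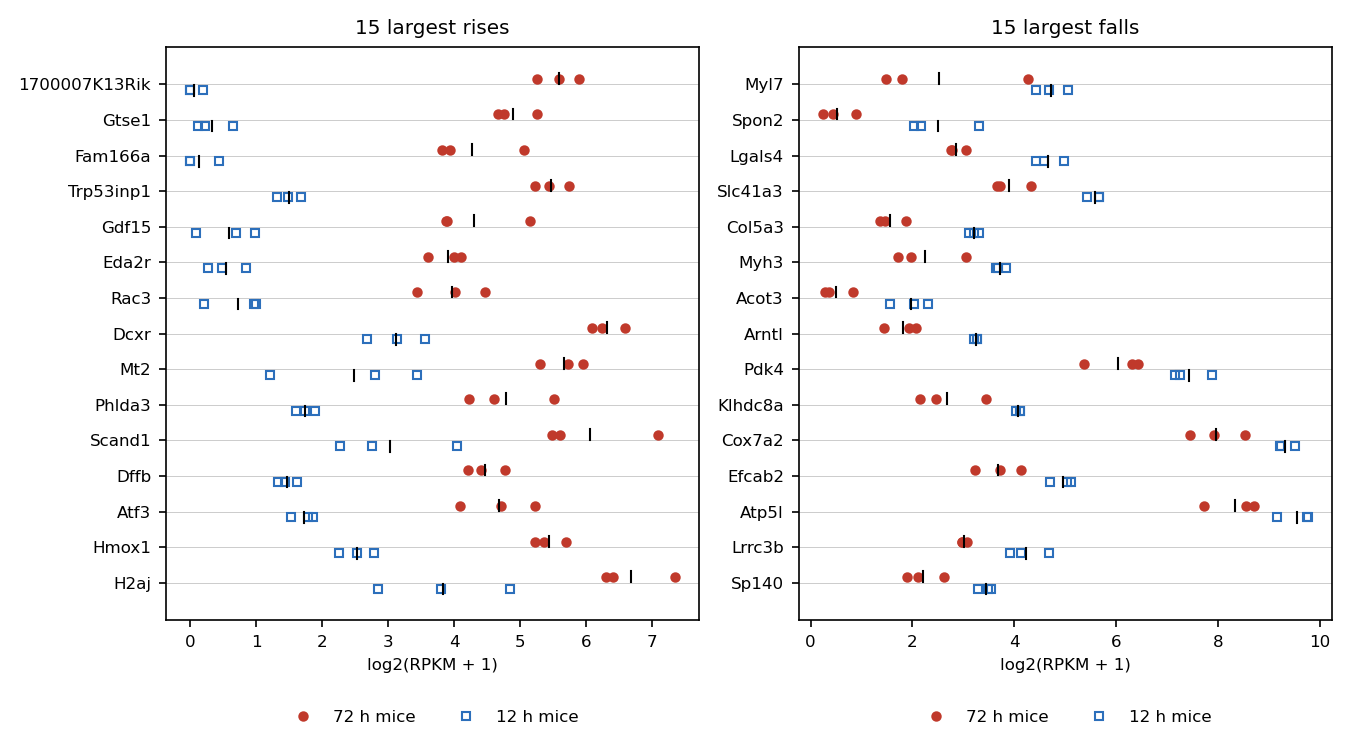
For each of the 15 largest rises (left) and the 15 largest falls (right), log2(RPKM + 1) of the 3 mice at 72 h (filled red circles) is drawn above that of the 3 mice at 12 h (open blue squares), with a black tick at each group mean. No gene shown has overlapping groups, which the choice of these genes required, and Myl7 has the narrowest gap, since A3278 (18.4 RPKM) lies close to the 12 h mice.

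Targets of p53 were the list with the largest median difference, though the lists and their members were chosen with earlier results of these data known. Of 27 tested, 20 were higher at 72 h (74.1%, against 12.2% of all tested genes) and 0 lower. Their median difference was 1.73, against 0.20 over all tested genes. The number higher was 20 on the common scale, 16 with the column code as a term, and 19 to 21 when 1 mouse was left out. Mdm2 had 139, 149 and 119.8 RPKM at 72 h, against 22.4, 23.9 and 18.5 RPKM at 12 h (2.60 ± 0.21, limma adjusted p = 2.77e-06). Cdkn1a, the cell cycle inhibitor p21, had 98.1, 59.9 and 58.98 RPKM at 72 h, against 12.99, 6.53 and 17.6 RPKM at 12 h (2.51 ± 0.32, limma adjusted p = 0.000163). Every 72 h mouse had more than 5 times the Mdm2 RPKM of any 12 h mouse.

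Trp53inp1 (chr4:11083578-11101526, plus strand), a p53-induced stress protein, had 36.2, 52.2 and 42.2 RPKM at 72 h, against 1.5, 1.8 and 2.21 RPKM at 12 h (3.96 ± 0.23, limma adjusted p = 8.24e-08). Sesn2, a sestrin that restrains mTORC1, had 15.1, 10.03 and 9.99 RPKM at 72 h, against 1.05, 1.23 and 0.51 RPKM at 12 h (2.71 ± 0.24, limma adjusted p = 6.53e-06). Phlda3, an inhibitor of Akt, had 44.8, 23.2 and 17.6 RPKM at 72 h, against 2.05, 2.72 and 2.34 RPKM at 12 h (3.03 ± 0.35, limma adjusted p = 6.87e-05).

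Gtse1, Eda2r and Dcxr, described above, belong to the same list. The other 12 members that rose had differences of 0.95 to 2.44, and among them were the nuclease Aen, the antiproliferative Btg2, the death receptors Tnfrsf10b and Fas, the kinase Plk2, the polymerase Polk, and Bax, Bbc3 and Apaf1 of the mitochondrial death pathway. Aen had 103, 70.5 and 64.4 RPKM at 72 h, against 15.7, 15.9 and 9.72 RPKM at 12 h (2.44 ± 0.28, limma adjusted p = 6.63e-05). Bax, with 51.7, 39.7 and 35.2 RPKM at 72 h, against 17.6, 17 and 15.3 RPKM at 12 h, lost its call without A3276 (1.28 ± 0.30, limma adjusted p = 0.0121). The 7 that did not pass the test were Ccng1, Sesn1, Plk3, Gadd45a, Perp, Rrm2b and Trp53i11, with differences of -0.55 to 0.97. Ccng1, cyclin G1, was abundant at both times, with 239, 422 and 307 RPKM at 72 h, against 211, 256 and 254 RPKM at 12 h.

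Genes of the circadian clock changed in both directions. The 2 clock lists (core repressors and activators, and output factors) had 29 tested members. Of these, 13 were higher and 2 lower at 72 h, and 14 did not pass the test. The lists had 40% and 50% higher, against 12.2% of all tested genes, and 6.67% and 7.14% lower, against 0.901%. These counts include Rev1, a DNA polymerase on the output list that is not itself a clock factor. Per2 (chr1:93312561-93355907, minus strand), a core repressor, had 10.7, 7.91 and 9.8 RPKM at 72 h, against 0.57, 0.48 and 0.81 RPKM at 12 h (2.69 ± 0.19, limma adjusted p = 6.5e-07). Arntl (chr7:120350979-120457636, plus strand), the activator also called Bmal1, had 3.18, 2.81 and 1.72 RPKM at 72 h, against 8.67, 8.6 and 8.24 RPKM at 12 h (-1.44 ± 0.21, limma adjusted p = 0.000473). Per2 was thus higher in every 72 h mouse and Arntl lower in every 72 h mouse, by wide margins.

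Among the other repressors, Per3 had 9.05, 5.46 and 6.46 RPKM at 72 h, against 1.4, 1.52 and 1.26 RPKM at 12 h (1.72 ± 0.21, limma adjusted p = 9.05e-05). Ciart (listed as Gm129), a repressor of the Arntl and Clock dimer, had 8.02, 5.12 and 5.49 RPKM at 72 h, against 1.44, 1.04 and 1.26 RPKM at 12 h (1.66 ± 0.25, limma adjusted p = 0.000632). Per1 had 26.2, 12.4 and 15.9 RPKM at 72 h, against 5.11, 4.18 and 8.61 RPKM at 12 h (1.45 ± 0.31, limma adjusted p = 0.00669). The groups did not overlap for any of the 3, but with the column code as a term Ciart and Per1 did not pass the test (adjusted p = 0.0888 and 0.264). Cry2 (0.74 ± 0.21) and Rora, an activator of Arntl (0.93 ± 0.24), were also higher, with limma adjusted p of 0.0317 and 0.0203, but Rora lost its call without A3258, A3276 or A3281, and Cry2 without each mouse except A3281.

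The output factor Dbp, which binds D-boxes, had 49.2, 27.2 and 29.96 RPKM at 72 h, against 5.6, 4.66 and 5.46 RPKM at 12 h (2.50 ± 0.36, limma adjusted p = 0.00045). Its relative Tef had 43.4, 37.7 and 38.1 RPKM at 72 h, against 8.1, 14.8 and 10.99 RPKM at 12 h (1.76 ± 0.23, limma adjusted p = 0.000247). Wee1, a kinase that holds back entry into mitosis, had 5.79, 5.84 and 6.1 RPKM at 72 h, against 2.17, 1.53 and 1.41 RPKM at 12 h (1.36 ± 0.21, limma adjusted p = 0.000617). Each of these was at least 2-fold higher in every 72 h mouse than in any 12 h mouse. Dbp shares 16.7% of its exon bases with Sphk2 on the other strand.

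Nfil3, which represses through the D-box sites that Dbp and Tef activate, was lower, with 6.27, 4.64 and 4.93 RPKM at 72 h, against 10.7, 10.97 and 8.09 RPKM at 12 h (-0.80 ± 0.23, limma adjusted p = 0.0324). That call was lost without A3252, A3258, A3264 or A3281. The remaining higher members were Hlf, Bhlhe40, Bhlhe41 and the DNA polymerase Rev1, with differences of 0.86 to 1.06; leaving out A3278, A3258 or A3276 ended the calls of Hlf, Bhlhe40 and Bhlhe41. Rev1 shares 29.1% of its exon bases with Eif5b on the other strand. Per1, Per2, Per3, Ciart, Arntl, Dbp, Tef, Wee1 and the polymerase Rev1 were the 9 list members that passed the test whichever mouse was left out. Clock itself did not pass the test, with 5.18, 7 and 5.85 RPKM at 72 h, against 4.25, 8.01 and 6.08 RPKM at 12 h (0.01 ± 0.20, limma adjusted p = 0.989). The Rev-erb receptors Nr1d1 (-0.27 ± 0.32) and Nr1d2 (0.69 ± 0.23), which repress Arntl, did not pass the test, nor did Cry1, Csnk1d, Csnk1e, Klf9, Klf15, Usp2, Tsc22d3, Leo1 and Herpud1, with differences of 0.31 to 0.74. The hours at which the mice were killed are not given, so 72 h, a whole number of days, and 12 h, which is not, cannot be told apart from different times of day.

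**Figure D3:**
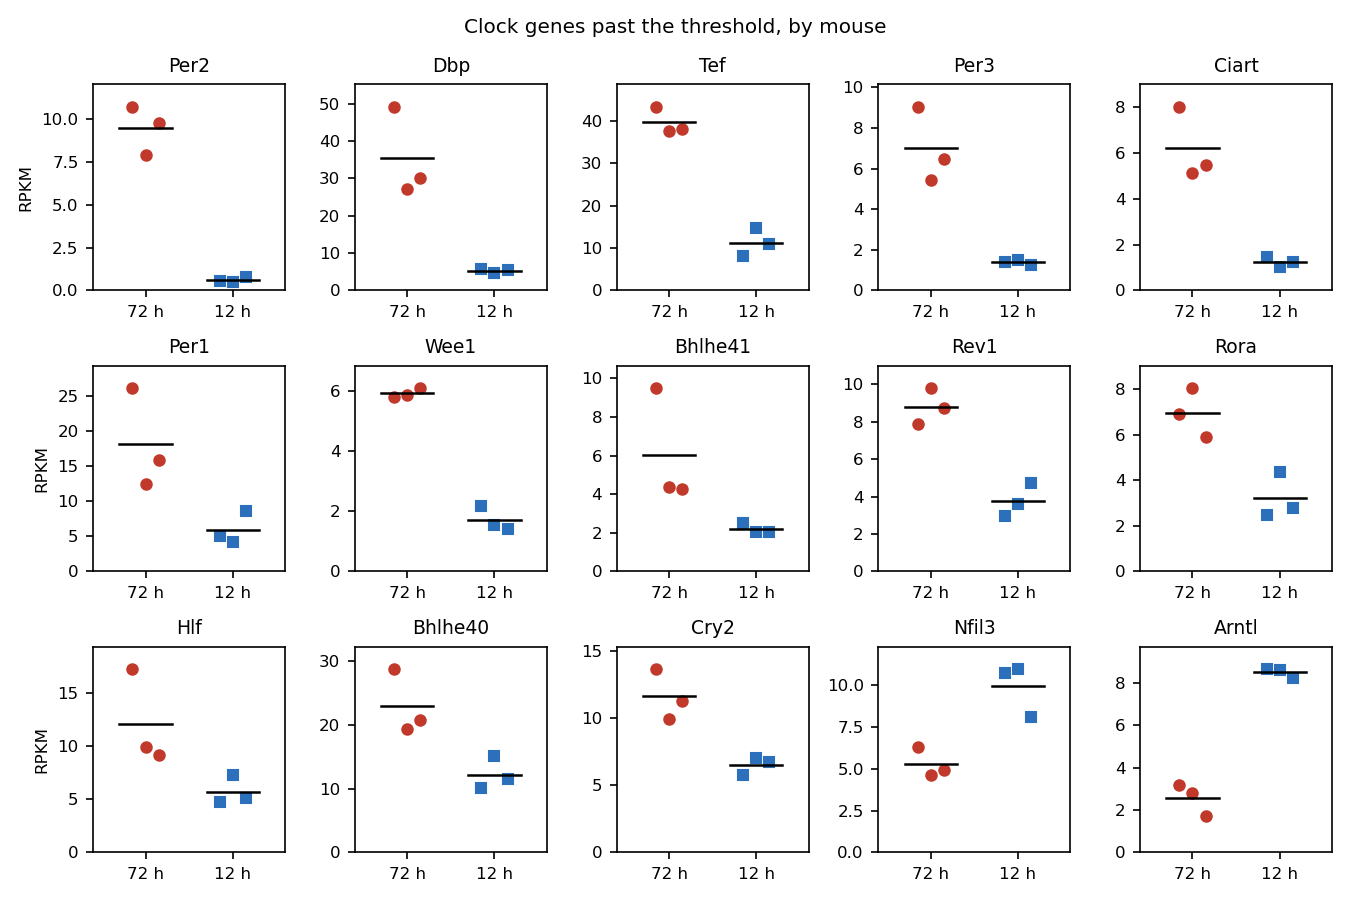
RPKM of each mouse for the 15 clock genes past the threshold, with 72 h on the left (red circles) and 12 h on the right (blue squares) of each panel and a black line at each group mean. The groups do not overlap in any panel, the 13 genes from Per2 to Cry2 are higher at 72 h, and Nfil3 and Arntl are lower.

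Some promoters of these genes hold the letters that clock factors read. RefSeq promoter windows, 250 bases before to 50 bases after the start site on GRCm38.p6, were found for 25 of 31 clock genes and searched on both strands for the E-box CACGTG, bound by Arntl with Clock, the D-box TTANGTAA, bound by Dbp, Tef, Hlf and Nfil3, and TAGGTCA, the core of the element bound by the ROR and Rev-erb receptors. The motifs were chosen after the values had been seen. The E-box was in a window of 8 of the 25 genes. It was in 7.15% of 32851 single windows in the table, but a gene can have several windows, so these shares differ in unit. It was found in 5 of the 10 higher list members with a window (Per1, Ciart, Tef, Bhlhe41 and the DNA polymerase Rev1). It was also in Cry1 and Klf15, which were not called, and in Lonrf3, which was not tested. The D-box was in Per3 alone (2 matches; 2.32% of all windows), and the ROR element in Arntl, Nfil3 and Leo1 (2.61% of all windows), of which Arntl and Nfil3 were lower and Leo1 was not called. A match describes the letters in the window and is not a site of binding. The windows are shown 5′ to 3′ on the gene's strand, with the matches in capitals, because they set the genes that rose beside those that fell:
Ciart (E-box, chr3:95882256-95882355, minus strand, GRCm38.p6): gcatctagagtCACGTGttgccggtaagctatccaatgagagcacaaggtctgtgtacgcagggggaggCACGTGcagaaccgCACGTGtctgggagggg
Per1 (E-box, chr11:69098736-69098835, plus strand, GRCm38.p6): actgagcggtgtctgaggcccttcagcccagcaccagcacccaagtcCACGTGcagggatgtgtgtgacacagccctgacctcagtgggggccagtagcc
Tef (E-box, chr15:81802499-81802598, plus strand, GRCm38.p6): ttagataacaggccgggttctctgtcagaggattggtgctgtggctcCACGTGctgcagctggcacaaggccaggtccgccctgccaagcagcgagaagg
Bhlhe41 (E-box, chr6:145865521-145865620, minus strand, GRCm38.p6): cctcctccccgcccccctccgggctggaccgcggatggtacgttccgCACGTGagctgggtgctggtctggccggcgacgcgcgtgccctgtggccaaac
Per3 (D-box, chr4:151044794-151044893, minus strand, GRCm38.p6): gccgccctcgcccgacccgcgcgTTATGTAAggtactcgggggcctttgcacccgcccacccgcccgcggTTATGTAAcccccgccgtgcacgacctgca
Nfil3 (ROR element, chr13:52981040-52981139, minus strand, GRCm38.p6): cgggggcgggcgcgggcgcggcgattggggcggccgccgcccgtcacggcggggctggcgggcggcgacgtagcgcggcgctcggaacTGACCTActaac
Arntl (ROR element, chr7:113207529-113207558, plus strand, GRCm38.p6): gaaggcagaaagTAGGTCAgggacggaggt

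Of the windows above, that of Ciart holds 3 E-boxes, of Per1, Tef and Bhlhe41 1 each, and of Per3 2 D-boxes, and all of these genes were higher at 72 h. In Nfil3 the ROR element lies on the other strand (TGACCTA), just before the start site, and in Arntl it lies after the start site.

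Immediate early genes, which cells turn on within minutes of a stimulus and many of which encode transcription factors, were mostly higher. Of 24 tested, 18 were higher at 72 h (75%, against 12.2% of all tested genes) and 0 lower, with a median difference of 1.26. This count depended on the processing more than that of the p53 targets: it was 12 on the common scale, 7 with the column code as a term, 10 without A3278, 10 without A3252, 13 without A3258, 14 without A3276, 16 without A3264 and 18 without A3281. Egr3 had 9.01, 3.27 and 4.05 RPKM at 72 h, against 0.41, 0.37 and 0.31 RPKM at 12 h (2.14 ± 0.29, limma adjusted p = 0.000301). Nr4a3, an orphan nuclear receptor, had 2.9, 1.76 and 2.18 RPKM at 72 h, against 0.17, 0.38 and 0.55 RPKM at 12 h (1.26 ± 0.19, limma adjusted p = 0.00068). The 72 h values of both were separate from all 12 h values.

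Junb, a subunit of the AP-1 factor, had 47.5, 20.5 and 22.4 RPKM at 72 h, against 7.31, 2.27 and 4.48 RPKM at 12 h (2.45 ± 0.43, limma adjusted p = 0.00196). Ier3 had 79.3, 22.02 and 30.5 RPKM at 72 h, against 7.65, 3.95 and 9.36 RPKM at 12 h (2.35 ± 0.41, limma adjusted p = 0.00167). In Junb, Ier3 and Egr3 the mouse A3278 was at least 2-fold above the other 72 h mice. Dusp1, a phosphatase of the same early response, had 50.4, 22.9 and 27.3 RPKM at 72 h, against 37.9, 33.3 and 33.1 RPKM at 12 h, and overlapped between the groups (-0.13 ± 0.27, limma adjusted p = 0.799). Egr2, Fosl1, Klf2, Klf6 and Csrnp1 likewise did not pass the test.

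Genes of acute inflammation rose as well. Of 20 tested, 14 were higher at 72 h (70%, against 12.2% of all tested genes) and 0 lower, with a median difference of 1.30. The number higher was 13 on the common scale, 8 with the column code as a term, and 12 or 13 when 1 mouse was left out. Ccl2, which draws monocytes into tissue, had 12.8, 12.7 and 15.8 RPKM at 72 h, against 0.84, 1.02 and 1.45 RPKM at 12 h (2.81 ± 0.32, limma adjusted p = 6.28e-05). Socs3, a feedback inhibitor of cytokine signalling, had 10.4, 9.01 and 7.47 RPKM at 72 h, against 1.64, 0.54 and 0.72 RPKM at 12 h (2.37 ± 0.38, limma adjusted p = 0.00107). Icam1, an adhesion molecule for white blood cells, had 13.8, 10.1 and 8.18 RPKM at 72 h, against 3.96, 2.94 and 3.39 RPKM at 12 h (1.38 ± 0.24, limma adjusted p = 0.00209). No 72 h mouse reached down to the 12 h range in any of the 3. Icam1 shares 19.3% of its exon bases with a non-coding gene on the other strand.

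Markers of white blood cells were measured beside these genes. None of 19 macrophage markers passed the test in either direction, with a median difference of 0.06, and their summed RPKM was 154.4 to 226.3 at 72 h and 125.4 to 186.6 at 12 h. Of 13 neutrophil markers in the table, 5 were expressed enough to be tested and Elane, Mmp8 and Mpo were listed at 0 in all 6 mice. The summed RPKM of the 13 was 2.8 to 6.5 at 72 h and 3.9 to 12.2 at 12 h. Among the 5, S100a9 was lower (-1.14 ± 0.36, limma adjusted p = 0.0471). Its groups overlapped at low levels, with 0.49, 0.51 and 1.215 RPKM at 72 h, against 5.98, 0.86 and 3.07 RPKM at 12 h. That call was lost without any mouse other than A3252. The 15 lymphocyte markers summed to 2.6 to 6.4 RPKM at 72 h and 3.0 to 3.5 RPKM at 12 h. The part of white blood cells in the result was not tested beyond these sums. Of 24 interferon and antigen presentation genes 3 were higher and 0 lower, close to the share over all genes, as was that of the 14 complement genes, with 2 and 0. Tap1, the peptide transporter of antigen presentation, had 22.4, 10.5 and 10.1 RPKM at 72 h, against 3.1, 3.98 and 2.15 RPKM at 12 h (1.85 ± 0.33, limma adjusted p = 0.00215). Both complement calls (C5ar1 and C4b) were lost without A3258, A3276, A3264 or A3278.

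Antioxidant genes that the factor NRF2 controls, together with metal-binding proteins, formed another group. Of 27 tested, 10 were higher at 72 h (37%, against 12.2% of all tested genes) and 0 lower, with a median difference of 0.54. The number higher was 10 on the common scale and 9 with the column code as a term. Hmox1, which breaks down heme, had 50.9, 40.2 and 36.5 RPKM at 72 h, against 4.78, 5.93 and 3.76 RPKM at 12 h (2.90 ± 0.33, limma adjusted p = 6.43e-05). Gclm, the regulatory subunit of the enzyme that makes the precursor of glutathione, had 25.4, 36.1 and 23.2 RPKM at 72 h, against 5.61, 7.23 and 8.05 RPKM at 12 h (1.86 ± 0.20, limma adjusted p = 4.31e-05). Sqstm1, the autophagy receptor p62, had 459, 403 and 380.1 RPKM at 72 h, against 161, 154 and 113 RPKM at 12 h (1.54 ± 0.20, limma adjusted p = 0.000144). All 3 were more than 2-fold higher in each 72 h mouse than in any 12 h mouse. Sqstm1 shares 17.3% of its exon bases with a gene on the other strand. Nqo1, a quinone reductase often used as a readout of NRF2, did not pass the test, with 13.8, 17.4 and 16.99 RPKM at 72 h, against 24.1, 20.3 and 21.5 RPKM at 12 h (-0.43 ± 0.22, limma adjusted p = 0.222). Catalase (Cat) and the superoxide dismutases Sod1 and Sod2 had differences of 0.05 to 0.10 and did not pass either.

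Genes of protein folding and breakdown rose in part. Of 30 proteasome subunits tested, 14 were higher (46.7%, against 12.2% of all tested genes) and 0 lower, with a median difference of 0.60. The number higher was 8 on the common scale, 6 with the column code as a term, and 7 without A3276, 9 without A3252 and 10 to 12 without another mouse. Psma5, of the alpha ring, had 83.1, 114 and 83.7 RPKM at 72 h, against 36.6, 28.9 and 36.9 RPKM at 12 h (1.42 ± 0.23, limma adjusted p = 0.00107). Psmd11, of the lid, had 84.95, 70.8 and 70.8 RPKM at 72 h, against 30.7, 35.3 and 29.02 RPKM at 12 h (1.23 ± 0.19, limma adjusted p = 0.000898). Other subunits did not pass the test, such as Psma1, with 57.1, 57.9 and 51.9 RPKM at 72 h, against 59.6, 51.2 and 51.7 RPKM at 12 h (0.04 ± 0.17, limma adjusted p = 0.913). The subunits thus did not move as a block, with differences of -0.30 to 1.42.

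Of 23 folding genes of the endoplasmic reticulum, 9 were higher (39.1%, against 12.2% of all tested genes) and 0 lower, with a median difference of 0.51. The number higher was 6 on the common scale and 6 with the column code as a term. It was 4 without A3276 and 6 without A3258, A3278 or A3281. Pdia3, a disulfide isomerase, had 111, 162 and 125 RPKM at 72 h, against 46.3, 51.6 and 49.7 RPKM at 12 h (1.40 ± 0.19, limma adjusted p = 0.000252). The chaperone BiP, Hspa5, the usual readout of the unfolded protein response, had 155, 179 and 166 RPKM at 72 h, against 162, 148 and 152 RPKM at 12 h (0.11 ± 0.19, limma adjusted p = 0.76). Of the integrated stress response, 5 of 21 genes were higher (23.8%, against 12.2% of all tested genes) and 0 lower. They were Atf3, Gdf15, Sesn2, Slc3a2 and Ppp1r15a, and the median difference of the list was 0.19. Sesn2 was counted among the p53 targets as well. Atf3 had 36.4, 15.96 and 25.1 RPKM at 72 h, against 2.46, 2.64 and 1.89 RPKM at 12 h (2.94 ± 0.29, limma adjusted p = 2.08e-05). The core factor of that response, Atf4 (0.37 ± 0.20), the amino acid enzyme Asns (0.02 ± 0.17) and Trib3 (0.07 ± 0.26) did not pass the test.

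Of 24 cytosolic heat shock genes, 4 were higher and 0 lower, a share of 16.7% near the 12.2% of all tested genes. They were the inducible Hspa1a and Hspa1b, the co-chaperone Dnajb1 and Hsp90aa1. Hspa1b had 26.5, 12.7 and 18.5 RPKM at 72 h, against 5.07, 2.92 and 3.09 RPKM at 12 h (2.08 ± 0.32, limma adjusted p = 0.000619). Hspa1a is nearly identical to it in sequence, so reads can be split between the 2 genes and their values are not independent. Hsp90aa1 was not past the threshold on the common scale (adjusted p = 0.0931) or with the column code (0.161), and Dnajb1 missed it with the code (0.0504).

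Lists of RNA and protein synthesis were split. Of 28 genes of ribosome making, 10 were higher (35.7%, against 12.2% of all tested genes) and 0 lower, with a median difference of 0.49. The number higher was 5 on the common scale, 2 with the column code as a term and 3 to 9 when 1 mouse was left out. Gnl3, a nucleolar GTPase, had 14.9, 23.8 and 17.8 RPKM at 72 h, against 7.42, 7.95 and 7.69 RPKM at 12 h (1.17 ± 0.21, limma adjusted p = 0.00218). Ddx21, an RNA helicase of the nucleolus, had 32.2, 35.8 and 28.6 RPKM at 72 h, against 12.4, 14.8 and 12.4 RPKM at 12 h (1.22 ± 0.22, limma adjusted p = 0.00221). Of 71 genes of cytosolic ribosomal proteins, 0 passed in either direction, at a median difference of 0.17.

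Splicing regulators, the class to which Celf1 belongs, had 8 of 29 members higher (27.6%, against 12.2% of all tested genes) and 0 lower. On the common scale 4 were higher and 2 lower, and with the column code as a term 1 was higher. Over all tested genes, 7.07% and 4.3% were higher in those fits. Hnrnpu, an abundant nuclear RNA-binding protein, had 128, 181 and 131 RPKM at 72 h, against 60.1, 56.3 and 55.8 RPKM at 12 h (1.32 ± 0.21, limma adjusted p = 0.00109). Tra2a, an activator of exon inclusion, had 39.5, 38.9 and 37.5 RPKM at 72 h, against 24.5, 14.6 and 16.3 RPKM at 12 h (1.06 ± 0.25, limma adjusted p = 0.0134) and lost its call without A3252 or A3276. Of 32 genes of messenger RNA decay 6 were higher (18.8%) and 0 lower, and 1 was higher on the common scale. Zfp36, which brings AU-rich messages to decay, had 35.2, 17.6 and 26.4 RPKM at 72 h, against 12.96, 5.56 and 13.4 RPKM at 12 h (1.27 ± 0.35, limma adjusted p = 0.0267), and lost its call without A3252, A3264 or A3278. Of 29 translation factors 4 were higher (Eif4a1, Eif4b, Eif3a and Eif3b) and 0 lower, and of 20 aminoacyl-tRNA synthetases 2 (Qars and Hars) and 0, which is 13.8% and 10% higher, near the 12.2% of all tested genes.

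Genes of energy metabolism leaned the other way. Of 37 genes of fatty acid uptake and oxidation, 0 were higher and 5 lower at 72 h (13.5%, against 0.901% of all tested genes). Their median difference was -0.24, against 0.20 over all tested genes. On the common scale 13 were lower, and with the column code as a term 1. Over all tested genes, 4.24% and 0.239% were lower in those fits. Pdk4, the kinase that shuts glucose-derived carbon out of the citric acid cycle, had 40.2, 84.8 and 77.97 RPKM at 72 h, against 141, 153 and 234 RPKM at 12 h (-1.40 ± 0.40, limma adjusted p = 0.031). Angptl4, an inhibitor of lipoprotein lipase, had 2.1, 4.09 and 3.56 RPKM at 72 h, against 9.17, 8.66 and 7.2 RPKM at 12 h (-1.16 ± 0.35, limma adjusted p = 0.0405). Ucp3, an uncoupling protein of muscle mitochondria, had 6.66, 8.02 and 9.05 RPKM at 72 h, against 19.1, 17.2 and 21.1 RPKM at 12 h (-1.18 ± 0.37, limma adjusted p = 0.0461). The groups did not overlap in these 3, but the calls depended on which mice were used. Leaving out 1 mouse left 0 to 2 of the 5 past the threshold (0 without A3252, A3258 or A3276, 1 without A3264 or A3278, 2 without A3281). Pdk4 kept its call without A3264 or A3281, and Angptl4 without A3281.

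Of 56 genes of the respiratory chain and ATP synthase, 0 were higher and 2 lower (3.57%, against 0.901% of all tested genes). Their median difference was -0.27. On the common scale 13 were lower, where 4.24% of all tested genes were lower. Atp5g3, a subunit of the rotor ring of ATP synthase, had 758, 655 and 606 RPKM at 72 h, against 1534, 1310 and 1101 RPKM at 12 h (-0.96 ± 0.21, limma adjusted p = 0.00858). Atp5l, another subunit, had 414, 212 and 373 RPKM at 72 h, against 859, 574 and 868 RPKM at 12 h (-1.24 ± 0.28, limma adjusted p = 0.00925). Cox7a2, of cytochrome oxidase and outside that list, had 367, 174 and 242 RPKM at 72 h, against 728, 605 and 597 RPKM at 12 h (-1.36 ± 0.31, limma adjusted p = 0.0103). Without A3278, 5 of the 56 were lower. Of 41 genes of glucose use and the citric acid cycle, 0 were higher and 2, Pfkfb1 and Idh3a, were lower (4.88%). The number lower was 10 on the common scale, with the same 4.24% over all tested genes, and 0 or 1 when 1 mouse was left out.

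Genes of the contractile apparatus changed little on the deposited scale. Of 24 sarcomere genes 1 was higher (Flnc) and 1 lower (Trim55). Each share was 4.17%, against 12.2% higher and 0.901% lower over all tested genes. On the common scale 7 were lower, where 4.24% of all tested genes were lower. Trim55, a ubiquitin ligase of the sarcomere, had 21.8, 20.1 and 21 RPKM at 72 h, against 29.1, 36.7 and 29.4 RPKM at 12 h (-0.57 ± 0.17, limma adjusted p = 0.0397) and lost its call whichever mouse was left out. The alpha myosin heavy chain Myh6, whose promoter drives the transactivator, had 7036, 5931 and 5761 RPKM at 72 h, against 6468, 7332 and 4886 RPKM at 12 h (0.02 ± 0.24, limma adjusted p = 0.974). Of 26 ion channels and connexins, 0 were higher and 2 lower (7.69%, against 0.901% of all tested genes), with 6 lower on the common scale. Kcnj2, the inward rectifier of resting potential, had 3.11, 6.07 and 4.04 RPKM at 72 h, against 7.36, 13.9 and 12.2 RPKM at 12 h (-1.16 ± 0.28, limma adjusted p = 0.0133). Kcnip2, the beta subunit of the fast transient outward current, had 10.7, 16.8 and 12.4 RPKM at 72 h, against 23.3, 20.98 and 20.9 RPKM at 12 h (-0.69 ± 0.20, limma adjusted p = 0.0375). Both lost their calls without A3252, A3276 or A3278 and with the column code. Of 18 calcium handling genes 0 were called in either direction, with 2 lower on the common scale.

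Fetal and stress genes of heart muscle moved in both directions, with 2 of 21 higher and 2 lower. Each share was 9.52%, against 12.2% higher and 0.901% lower over all tested genes. On the common scale 1 was higher and 7 were lower, where 7.07% of all tested genes were higher and 4.24% lower. Ankrd1, a stress-responsive protein of the sarcomere and nucleus, had 898, 833 and 604 RPKM at 72 h, against 379, 340.4 and 299 RPKM at 12 h (1.18 ± 0.29, limma adjusted p = 0.0154), and its call was lost without A3276. Nppb, the B-type natriuretic peptide, had 414, 145 and 158 RPKM at 72 h, against 87.6, 99.6 and 82.5 RPKM at 12 h (1.23 ± 0.36, limma adjusted p = 0.0354), and its call was lost without A3278, A3252, A3258 or A3276. A3278 was more than 2-fold above the other 72 h mice in Nppb. Myh3, the embryonic myosin heavy chain, had 2.3, 2.92 and 7.26 RPKM at 72 h, against 13.3, 11.5 and 11.9 RPKM at 12 h (-1.47 ± 0.29, limma adjusted p = 0.00396).

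Myl7, the atrial regulatory light chain, showed the largest fall of all called genes, with 18.4, 2.46 and 1.805 RPKM at 72 h, against 24.7, 32.2 and 20.4 RPKM at 12 h (-2.20 ± 0.51, limma adjusted p = 0.0107). A3278 lay near the 12 h mice, and A3281 and A3264 far below. In Myl4, Nppa, Sln and, by a narrow margin, Kcnj5, A3278 lay within the 12 h range and A3281 and A3264 below it, whereas Kcnj3, Dkk3, Tbx5 and Nr2f2 did not show this pattern. Sln, the atrial calcium pump inhibitor, had 13.04, 1.17 and 0.95 RPKM at 72 h, against 14.1, 10.5 and 16.7 RPKM at 12 h (limma adjusted p = 0.145). The 10 atrial markers summed to 182.8, 72.1 and 66.0 RPKM at 72 h and to 158.4, 198.6 and 173.3 RPKM at 12 h, and 1 of the 9 tested was called (4 without A3278). The atria had been removed at dissection, and the part of remaining atrial tissue in the fall of Myl7 was not tested.

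Of 36 matrix proteins and enzymes 5 were higher (13.9%, near the 12.2% of all tested genes) and 2 lower (5.56%, against 0.901% of all tested genes), and of 17 collagens 0 were higher and Col5a3 was lower. Thbs1, thrombospondin 1, had 19.8, 12.6 and 12.3 RPKM at 72 h, against 1.98, 3.38 and 3.61 RPKM at 12 h (1.99 ± 0.28, limma adjusted p = 0.000344). Timp3, an inhibitor of matrix proteases, had 59.2, 42.4 and 55.8 RPKM at 72 h, against 13.2, 24.2 and 24.7 RPKM at 12 h (1.34 ± 0.24, limma adjusted p = 0.00218), and it shares 21.3% of its exon bases with Syn3 on the other strand. The count of higher matrix genes was 2 without A3278 or A3258. None of 14 fibroblast markers or 12 smooth muscle and pericyte markers was called; their RPKM sums were 1022 to 1464 and 992.4 to 1460.2 at 72 h, and 926.1 to 1134 and 735.9 to 833.0 at 12 h. The smooth muscle sum was carried by Des, which heart muscle also makes: without it the other 11 markers summed to 280.0 to 335.5 RPKM at 72 h and 258.5 to 335.2 RPKM at 12 h, which overlap.

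Further lists gave scattered calls. Of 22 genes that respond to glucocorticoids or fasting, 7 were higher (31.8%, against 12.2% of all tested genes) and 3 lower (13.6%, against 0.901%). The 3 lower genes were Pdk4, Angptl4 and Ucp3, also fatty acid genes. With the column code 1 was higher and 0 lower. Zbtb16, a zinc finger repressor, had 20.8, 21.02 and 24.5 RPKM at 72 h, against 8.86, 8.71 and 9.69 RPKM at 12 h (1.19 ± 0.17, limma adjusted p = 0.000357). Cebpd had 32, 17.6 and 22.4 RPKM at 72 h, against 7.03, 1.06 and 9.49 RPKM at 12 h (2.12 ± 0.50, limma adjusted p = 0.012), with A3252 lowest by far, as in Mt2. Of 26 genes of muscle wasting and autophagy 5 were higher (19.2%) and 0 lower. Foxo3, a factor that induces autophagy genes, had 25.6, 14.1 and 18.2 RPKM at 72 h, against 4.45, 5.5 and 6.3 RPKM at 12 h (1.64 ± 0.23, limma adjusted p = 0.000304). Ulk1, the kinase that starts autophagy, had 50.1, 27.9 and 31.2 RPKM at 72 h, against 13.4, 13.7 and 16.4 RPKM at 12 h (1.23 ± 0.23, limma adjusted p = 0.00306). The groups did not overlap in any of these 4 genes.

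Of 25 cell division genes 3 were higher and 0 lower, at the share over all genes. Rrm2, a subunit of ribonucleotide reductase, had 10.9, 9.31 and 8.6 RPKM at 72 h, against 0.93, 2.19 and 1.73 RPKM at 12 h (2.05 ± 0.28, limma adjusted p = 0.000303). Further lists had higher shares of 4.76% to 21.4%, against 12.2% of all tested genes: iron handling had 3 of 18 higher and 0 lower, cardiac transcription factors 2 of 23 and 0 (Hey1 and Tbx3), hypoxia and glycolysis signalling 3 of 14 and 1, and cholesterol and lipid synthesis 1 of 21 and 1. Endothelial markers had 2 of 16 higher (Ly6c1 and Flt1) and 1 lower (Kdr), all of them lost without A3276 or A3264. Skeletal muscle markers had 2 of 11 higher, Tnnt3 and Tnnc2, at low levels. Tnnt3 had 1.09, 2.68 and 4.19 RPKM at 72 h, against 0.09, 0 and 0.08 RPKM at 12 h (1.70 ± 0.33, limma adjusted p = 0.00354), but in the 2 columns that share a code it had 0 RPKM in A3264 (72 h) and 0.08 RPKM in A3276 (12 h), so that its level in A3264 came from the other column of that mouse, and with the code as a term its adjusted p was 0.727. In the 2 columns that share a code Tnnc2 had 0.63 RPKM in A3264 and 0.5 RPKM in A3276. Its limma adjusted p was 0.492 with the code as a term and 0.0501 on the common scale. Tnnc2 also shares 74.0% of its exon bases with Ube2c on the other strand. Neither red cell markers (3 tested) nor fat cell markers (5 tested) gave a call; they summed to 727.6 to 1834.5 and 536.6 to 672.3 RPKM at 72 h, and 1178 to 2148 and 543.8 to 637.1 RPKM at 12 h. Of 15 reference genes, Polr2a alone was called (0.81 ± 0.18, limma adjusted p = 0.00977), without a call on the common scale, and the 15 differences ran from -0.71 to 0.81.

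**Figure D4:**
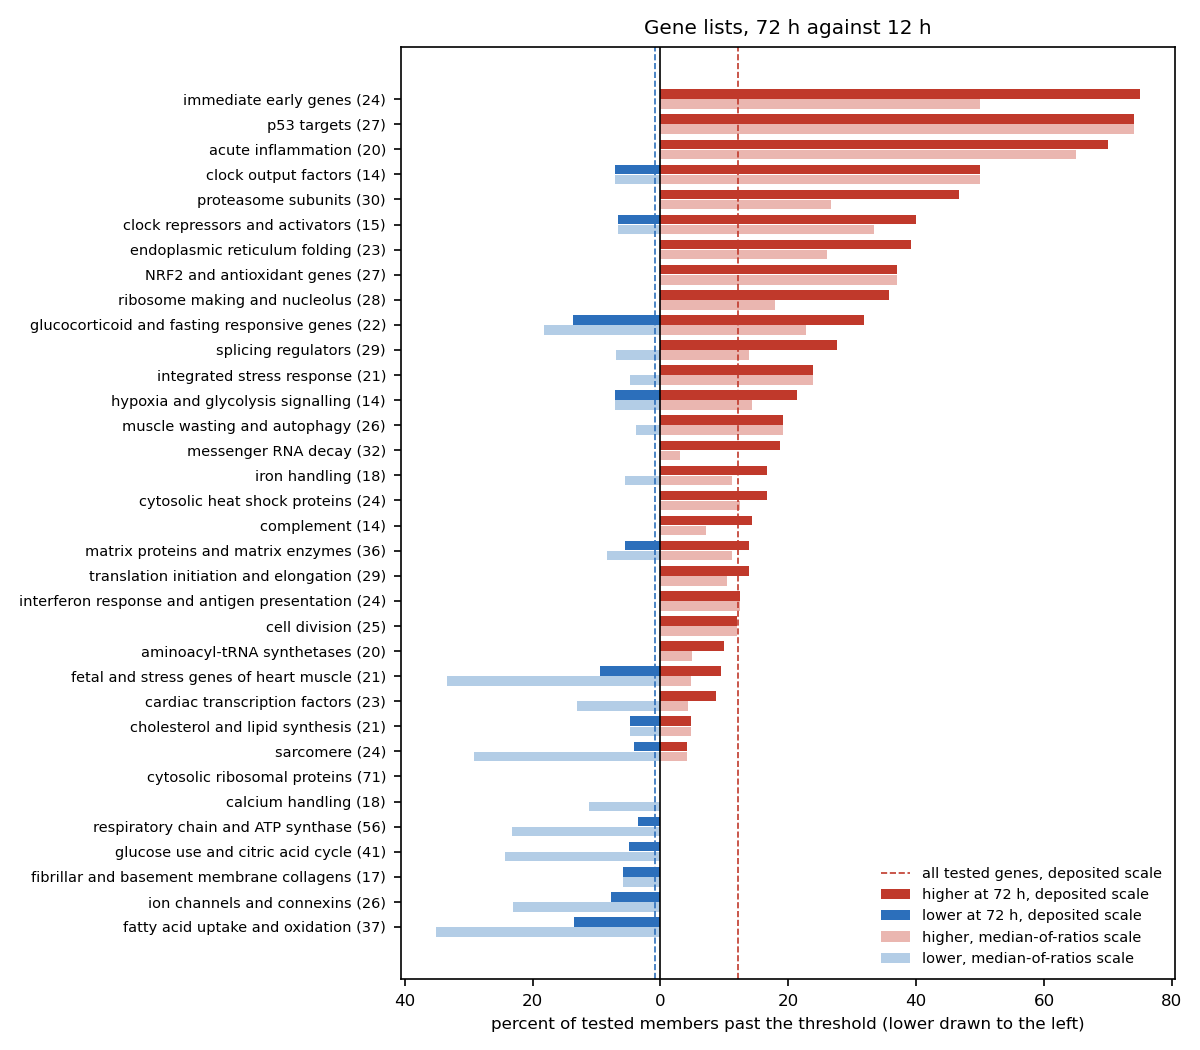
For each gene list (tested members in brackets), the percent of tested members higher at 72 h is drawn to the right and the percent lower to the left, on the deposited scale (dark) and on the common median-of-ratios scale (pale), with dashed lines at 12.2% and 0.901% for all tested genes. Immediate early genes (18 of 24), p53 targets (20 of 27) and acute inflammation (14 of 20) reach furthest right. Among lists with lower genes are the fatty acid genes (5 of 37) and the glucocorticoid and fasting genes (3 of 22). The lists were chosen with earlier results of these data known.

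The named genes were also compared with the column code as a term. Of the 127 named genes besides Celf1, 70 passed the test with the code as a term, in the same direction. Eda2r was larger with the code (3.75, against 3.37 without it), as was Myl7 (-2.60 against -2.20), and Trp53inp1 was alike (3.96 with and without it). Mt2 (2.27 against 3.17) and Dbp (1.56 against 2.50) were smaller and still passed, and Per1 (0.70 against 1.45) and Scand1 (1.75 against 3.03) did not. The fit with the code used 13 columns, but A3278 and A3252 did not add to its difference, since no other fitted column carried their codes. Shifts between the 2 fits thus hold both the code term and the loss of these mice. What the code corrects for was not tested.

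**Figure D5:**
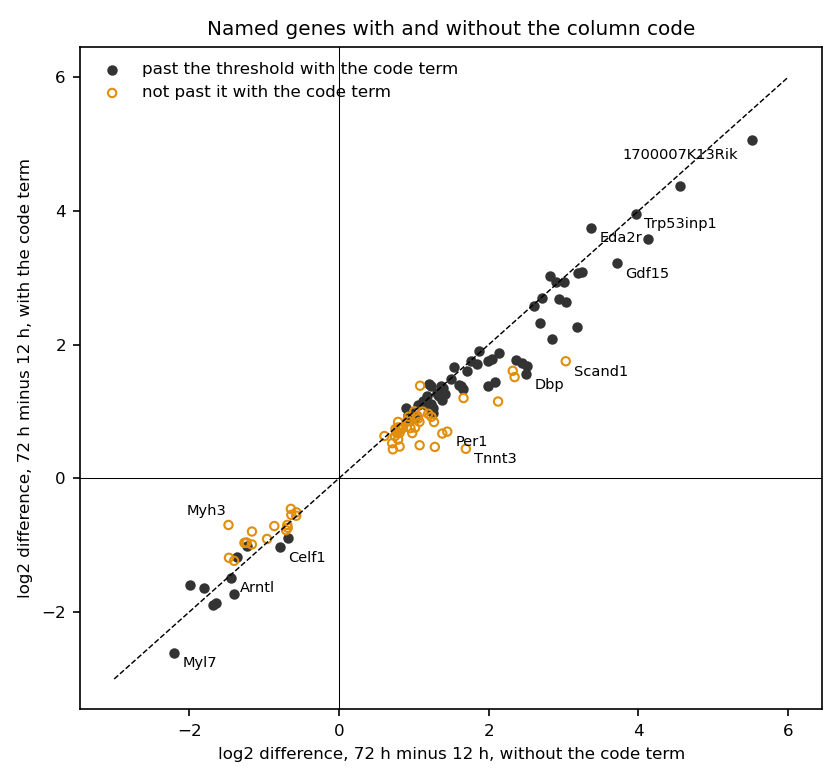
Each point is 1 of the 128 named genes, with its log2 difference, 72 h minus 12 h, without the column code on the x axis and with it on the y axis; filled points are past the threshold with the code and open points are not. Most points lie near the dashed line of equality, and Tnnt3 (0.44 with the code) is among the farthest below it.

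The genes called outside all 46 lists numbered 1154 higher and 75 lower, so most of the called genes lay outside the groups described here.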

How the data were processed

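Polyadenylated RNA of ventricles was aligned to mm9 with TopHat and Bowtie, per the submitters' processing notes. No source used here gives the counting tool, its strand setting or the versions. The authors deposited RPKM values for 16042 genes in 20 columns of 15 mice, with no counts. Columns of 1 mouse were averaged. Depth per column, estimated from the steps of low RPKM values in short gene models, was 16.4 to 47.1 M mapped reads over 8 columns, the lowest of which rests on 15 genes.

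Values were tested as log2(RPKM + 1) with limma 3.58.1 in R 4.3.3 (eBayes with trend, two-sided, Benjamini-Hochberg, threshold 0.05). All 12 induced mice in 4 groups entered the fit, so that the other times add to the estimate of spread (8 residual degrees of freedom). Genes with a mean of at least 1 RPKM over these mice were tested, 10871 in all. A fold change on this scale understates the change of low genes. The p-values set each difference against the spread between mice within these 4 groups, which limma moderates over genes.

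Named genes were those past the threshold with groups that do not overlap: the 15 largest differences each way, up to 4 of smallest p in each of 46 lists, and Celf1, Arntl, Per2, Dbp, Cdkn1a, Mdm2, Gdf15 and the reference genes. Other genes named beside a count were chosen after their values were seen. Members and lists were chosen with earlier results of these data known. Of 1124 list entries, 1096 were matched to the table by symbol or identifier, and the others were not analysed here. A few list members are counted but not reported by name here. Positions are from the mm9 annotation, and 28 of the 128 named genes share exon bases with another gene.

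Alternatives were other scalings, a correction for GC content, other filters and pseudocounts, the 6 mice alone, all 15 mice, the column code as a term (13 columns, with a correlation of 0.332 between columns of 1 mouse), and leaving out each mouse. The fit was tested on simulated data.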

Additional observations from a re-analysis of the deposited data

How the results depend on the processing

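All called genes (1422) numbered 493 with the column code as a term and 731 to 1171 when 1 mouse was left out. With the code, A3278 and A3252 did not add to the difference. Higher genes (1324) numbered 467 with the code, 769 after median-of-ratios scaling, 665 after quantile normalization, 688 without A3278 after median-of-ratios scaling, and 694 to 1116 without 1 mouse. Lower genes (98) numbered 745 with GC correction and median-of-ratios scaling, 701 with GC correction, 173 with all 15 mice in the fit, 26 with the code, 461 after median-of-ratios scaling, 469 after quantile normalization, 341 without A3278 after median-of-ratios scaling, and 37 to 96 without 1 mouse. Genes with every 72 h value above every 12 h value (3050) numbered 1780 after median-of-ratios and 1669 after quantile scaling, and 3339 to 4322 without 1 mouse; those below (555) numbered 1747, 1922 and 627 to 1475. The difference of Celf1 ran from -1.008 to -0.671 without 1 mouse. Tnnt3 was -0.111 within the columns that share a code. The causes were not tested. GC correction with scaling, and leaving out A3278 with scaling, were chosen after seeing the data. Of 127 named genes besides Celf1, 70 kept their call with the code, 109 after median-of-ratios scaling, 118 with GC correction and 91 without A3276, the lowest for a left-out mouse. No paired analysis was possible because the labels give no replicate number shared by the groups. Depth limits genes near 0 RPKM, where no counts are given.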
